A study of Rattus norvegicus with 9 samples.

Results

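The genes described are macrophage and myeloid genes, a list of 38 symbols that was compiled by name, with earlier results of these data known but with no threshold on the values, from receptors, adaptors, transcription factors and secreted proteins that mark macrophages or are used by white blood cells in general. Of these symbols, 35 had a feature with 1 gene symbol among the 29215 features of the array, and each of the 35 had only 1 such feature. No such feature was found for Timd4, Msr1 and Cd84, which are not analysed here. The expression of these genes was compared among right ventricles of male SD (Sprague-Dawley) rats on Affymetrix whole-transcript rat gene arrays. The Sham group had been sham-operated. Both other groups had undergone pulmonary artery banding (PAB), a surgical narrowing of the pulmonary artery that loads the right ventricle. The labels mark one of them as fibrosis (F+), and the study's methods placed a banded rat in the F+ or the F- group by the fibrotic area of its heart tissue. The 3 groups had 3 arrays each, numbered 1 to 3. The sources used here do not say that the arrays of a group came from separate rats. What the p-values weigh is thus the scatter among these arrays alone, and it may be technical. The tissue was whole ventricle, so a lower number of cells of a type and less RNA per cell cannot be told apart.

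Macrophages are phagocytes that live in every tissue. In the heart, a resident population lies among the muscle fibres, clears debris and dead cells and renews itself locally, whereas monocytes that arrive from the blood can become macrophages when the tissue is injured or overloaded. Colony stimulating factor 1, acting on the receptor encoded by Csf1r, keeps macrophages alive, and the transcription factor PU.1, encoded by Spi1, switches on many of the genes that define them. Macrophages are found in fibrotic tissue, where they exchange growth factors with fibroblasts.

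The arrays were alike in scale, and the question asked was how the myeloid genes differed between banded ventricles with and without fibrosis and the sham-operated ones. The median deposited value of an array lay between 33.4 and 33.9, and the lowest correlation between any 2 arrays over all features was 0.978. The cardiomyocyte markers, which check the labelled tissue, had a summed value of 1502 to 1542 on every array, and no listed gene was at 0 on any array. A pair of arrays stood apart within their groups. For Nppa, the natriuretic peptide gene of stressed heart muscle, F- array 1 had 155.6 while the other F- arrays had 37 and 43.6, and sham array 2 had 135.8 while the other sham arrays had 57.7 and 59.7. The 3 F+ arrays had Nppa values of 149.5, 134.3 and 140.2. The counts and medians of the myeloid genes are given with and without these arrays. Values of a gene are given in the order of arrays 1, 2 and 3 of a group. Fold changes are differences of mean log2 deposited values, their errors are standard errors, and no source used here states the scale of the deposited values. The folds that the study printed for Nppa are the ratios of the group means of these values, so the study used them as linear intensities. Taking their square roots as log2 values, the other reading tried, leaves the direction of every myeloid gene named here as it is and generally makes folds larger, for example 1.87 in place of 1.23 for Lyve1 between F+ and F-.

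The stretches of DNA just upstream of several of these genes are shown first, because PU.1 is known to bind purine-rich letters of the GAGGAAG kind in myeloid promoters. Promoters of 300 bases, running from 250 bases before to 50 bases after the start of the gene, were taken from RefSeq, assembly GRCr8, and were held for 25 of the 35 measured genes. The letters GAGGAAG, searched on both strands, were in 13 of these 25 promoters (52%). They were in 12.4% of all 33469 promoters of the same length, and in 13% of the 12536 promoters whose gene had a feature with 1 symbol. Of the 12 promoters whose gene had an unadjusted p under 0.05 between F+ and F-, 6 held the letters. The shorter letters GAGGAA, which the longer ones contain, were in 17 of the 25 (68%) and in 27.6% of all promoters. The promoters of Itgam (chr1:192089342-192089641, plus strand), Ctss (chr2:185775146-185775445, plus strand), Mrc1 (chr17:82157475-82157774, plus strand), Lyve1 (chr1:174410928-174411227, minus strand) and Cd163 (chr4:158770524-158770823, plus strand) are printed 5′ to 3′ on the strand of the gene. These genes had an unadjusted p under 0.05 between F+ and F-, and 3 of them hold the letters while 2 do not. The choice does not follow the order of p. Folr2, without the letters, had a smaller p than Ctss and Mrc1 and is not printed. Capitals mark GAGGAAG or its reverse complement CTTCCTC.
Itgam: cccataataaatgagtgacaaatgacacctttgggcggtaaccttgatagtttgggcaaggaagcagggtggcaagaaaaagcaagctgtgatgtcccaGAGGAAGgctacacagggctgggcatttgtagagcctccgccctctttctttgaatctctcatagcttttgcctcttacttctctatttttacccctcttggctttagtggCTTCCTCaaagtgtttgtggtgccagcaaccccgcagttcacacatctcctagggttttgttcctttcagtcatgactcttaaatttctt
Ctss: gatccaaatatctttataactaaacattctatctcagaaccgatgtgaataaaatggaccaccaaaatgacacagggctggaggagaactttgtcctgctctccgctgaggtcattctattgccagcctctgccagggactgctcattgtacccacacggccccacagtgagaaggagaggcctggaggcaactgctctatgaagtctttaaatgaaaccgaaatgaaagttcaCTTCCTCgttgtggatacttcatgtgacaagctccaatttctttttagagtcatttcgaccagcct
Mrc1: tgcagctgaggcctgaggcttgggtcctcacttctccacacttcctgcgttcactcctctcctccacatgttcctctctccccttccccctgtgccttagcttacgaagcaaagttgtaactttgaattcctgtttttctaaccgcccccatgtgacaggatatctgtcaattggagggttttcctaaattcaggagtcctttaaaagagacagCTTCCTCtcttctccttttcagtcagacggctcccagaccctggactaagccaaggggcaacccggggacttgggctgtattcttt
Lyve1: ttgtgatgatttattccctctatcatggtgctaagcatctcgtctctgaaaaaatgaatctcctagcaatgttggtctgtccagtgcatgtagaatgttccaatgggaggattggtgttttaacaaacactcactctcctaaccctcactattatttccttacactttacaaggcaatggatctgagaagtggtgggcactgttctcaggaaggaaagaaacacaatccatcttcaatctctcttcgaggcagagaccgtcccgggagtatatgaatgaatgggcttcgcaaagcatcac
Cd163: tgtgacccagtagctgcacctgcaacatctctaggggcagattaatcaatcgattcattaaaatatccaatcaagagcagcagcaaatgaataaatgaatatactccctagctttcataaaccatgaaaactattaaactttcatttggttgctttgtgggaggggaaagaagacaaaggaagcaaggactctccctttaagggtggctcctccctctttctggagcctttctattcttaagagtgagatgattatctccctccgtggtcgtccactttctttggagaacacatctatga
The Itgam promoter held the letters 2 times, at position -151 on the plus strand and at position -40 on the reverse strand, where the start base of the gene is position 0 and the position is that of the leftmost letter. The promoters of Ctss and Mrc1 each held them once, on the reverse strand, at -16 and -36. The letters were not in the windows of Lyve1 and Cd163, which says only that they are not in these bases. A match describes the sequence and is not a measured binding site.

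As a set, the myeloid genes were slightly higher in F+ than in either other group. Between F+ and F-, 31 of the 35 genes had a higher mean in F+, with a median log2 fold change of 0.14 (1.10-fold), quartiles of 0.07 and 0.23, and a range from -0.11 for Arg1 to 0.43 for Gpnmb. Over all features the median was -0.0023, and 48.2% were higher in F+. No single gene of the set passed the adjusted test (limma, Benjamini-Hochberg over all features), where 0.00342% of all features, 1 in number, did. The adjusted p-values of the 35 genes ran from 0.488 to 0.973. At an unadjusted p under 0.05, 15 of the 35 genes (42.9%) were higher and 0 were lower, against 3.65% and 3.76% of all features. In 11 genes (31.4%) every F+ array lay above every F- array, against 4.46% of all features. These were Lyve1, Folr2, Cd163, Mertk, Csf1r, Fcer1g, Itgam, Ctss, Lgals3, Cd53 and Laptm5.

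Against sham, 33 of the 35 genes had a higher mean in F+, with a median log2 fold change of 0.18 (1.13-fold), against a median of -0.0035 over all features, of which 47.5% were higher. Again no gene of the set passed the adjusted test, which 0% of all features passed in this comparison, and the adjusted p-values of the set ran from 0.60 to 0.820. At an unadjusted p under 0.05, 14 genes (40%) were higher and 0 lower, against 3.5% and 3.9% of all features. In 21 genes (60%) every F+ array lay above every sham array, against 5.69% of all features. Without F- array 1, 20 genes were higher at an unadjusted p under 0.05 (median 0.18), against 4.43% of all features. The count was 11 without sham array 2 (median 0.16), against 3.06%, and 18 without both arrays (median 0.16), against 3.84%. The comparisons of F+ with F- and of F+ with sham use the same 3 F+ arrays, so they are not independent of each other. The 35 genes are not independent of each other either, as many of them varied together from array to array. A count of genes is thus not a count of separate results.

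The F- and sham groups lay close together. Between them, 26 of the 35 genes had a higher mean in F-, but the median log2 fold change was 0.025 (1.02-fold), against -0.0025 over all features. The adjusted test called 0% of all features and 0 of the 35 genes, with adjusted p-values of the genes between 0.743 and 0.998. At an unadjusted p under 0.05, 0 of the 35 were higher and 0 lower, against 3.07% and 2.96% of all features. Aif1 alone had every F- array above every sham array (2.86% of the genes, against 5.15% of all features). The direction of this comparison depended on single arrays. Without sham array 2, 17 of the 35 genes were higher in F- and the median was -0.00035, with 1 gene higher at an unadjusted p under 0.05, against 3.45% of all features. Without F- array 1, only 12 of the 35 genes were higher in F-, and the median was -0.03. In that fit Cd163 and Clec7a were lower at an unadjusted p under 0.05, by -0.24 and -0.25, against 2.35% of all features lower. With both arrays left out, the median was -0.06 and 5 genes, Mertk, Cd14, Clec7a, Lgals3 and Gpnmb, were lower at that threshold, against 2.85% of all features.

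**Figure D1:**
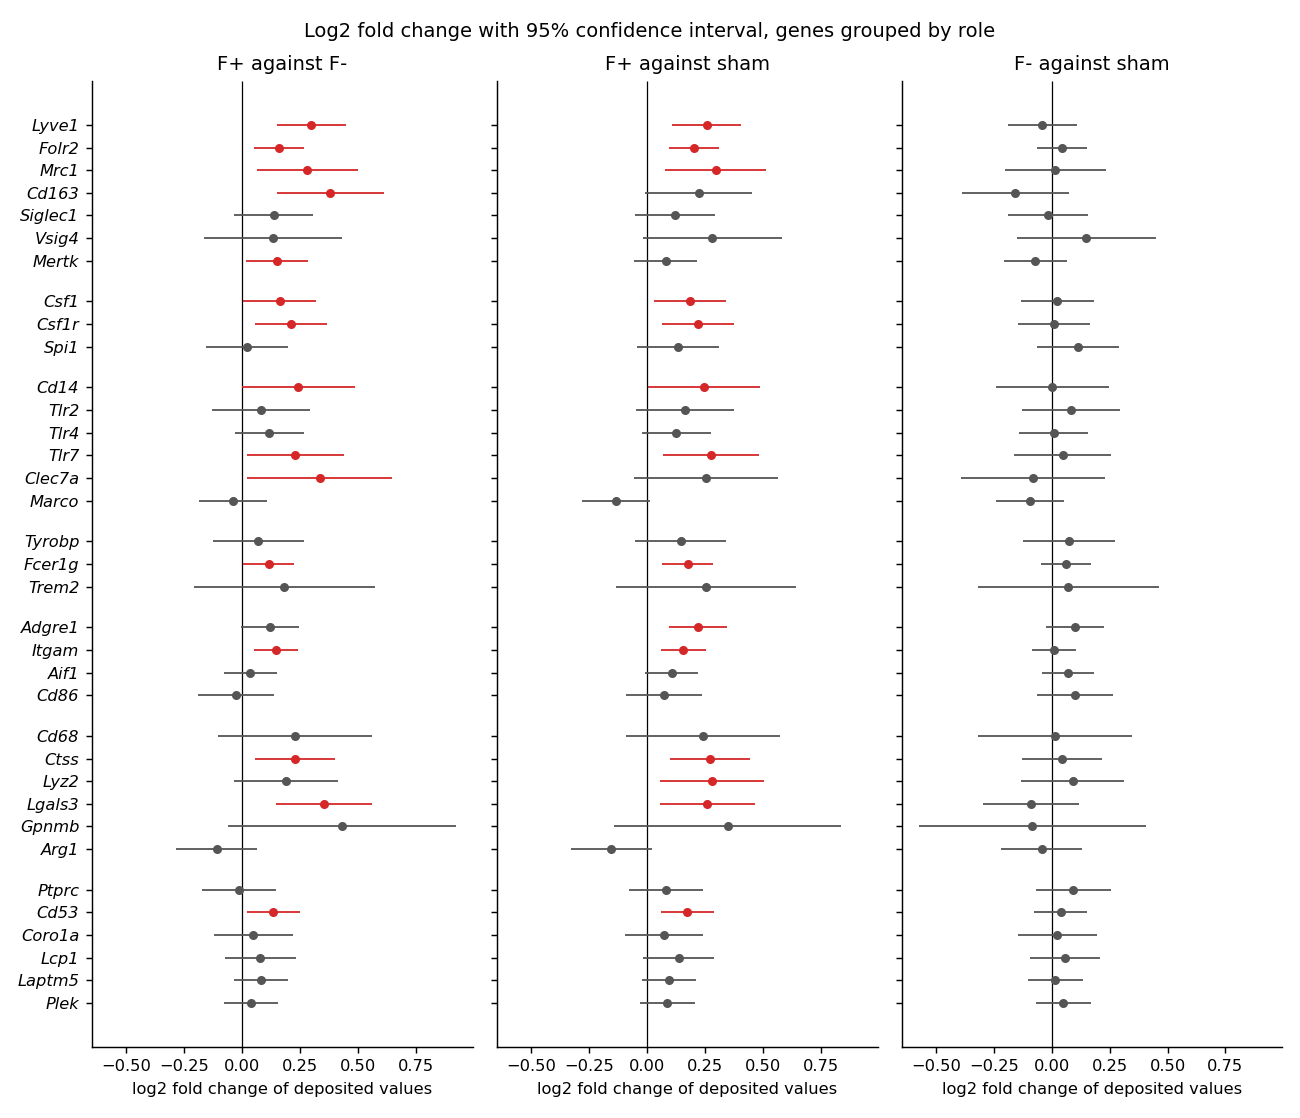
Log2 fold change of each of the 35 measured genes with its 95% confidence interval, in F+ against F-, F+ against sham and F- against sham, with genes grouped by role. Red marks an unadjusted p under 0.05, which 15, 14 and 0 genes had, and the vertical line marks no difference.

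The 3 F- arrays were not alike for these genes. F- array 1 was the highest of the F- arrays for 32 of the 35 genes (91.4%, against 31.9% of all features), and F- array 3 was the lowest for 24 (68.6%, against 25.2%). F- array 1 lay above every sham array for 29 of the 35 (82.9%, against 27.5% of all features), and it reached at least the lowest F+ array for 24 (68.6%, against 75% of all features). The median deviation of the 35 genes from their means over the 9 arrays, on the log2 scale, was 0.09 on F- array 1, -0.04 on F- array 2 and -0.13 on F- array 3. In F+ it was 0.09, 0.16 and 0.07, and in sham -0.02, -0.10 and -0.04. On this measure F- array 1 was level with F+ array 1 and above F+ array 3. With F- array 1 left out, 33 of the 35 genes were higher in F+ than in F-, the median was 0.19, and 22 genes had an unadjusted p under 0.05, against 5.22% of all features higher. The 7 genes gained were Siglec1, Tlr2, Tlr4, Adgre1, Cd68, Lyz2 and Gpnmb. F- array 1 is singled out here because of its values. It was the highest F- array for 32 of the 35 genes, so leaving it out raises their differences by construction. The larger count, and the larger folds of single genes given below without this array, are therefore not read as support. With sham array 2 left out as well, the count was 22 and the median 0.19, against 4.77% of all features higher. Without sham array 2 alone the count was 13 and the median 0.14, against 3.15%. With F- array 3 left out, the count was 6, against 2.75% of all features higher, and the median was 0.09. Leaving out F- array 2 gave a count of 8, against 3.92% of all features. Leaving out F+ array 1, 2 or 3 gave 11, 7 and 7 higher genes, against 3.41%, 3.06% and 3.05%, and without F+ array 1 Arg1 was lower at that threshold. In each of the 9 fits that left out 1 array, 5 genes kept an unadjusted p under 0.05 between F+ and F-, which were Lyve1, Folr2, Cd163, Itgam and Lgals3. The sign of the difference turned in at least 1 of these fits for 7 genes, Spi1, Marco, Tyrobp, Cd86, Ptprc, Coro1a and Plek, whose log2 fold changes over all arrays were at most 0.070 in size. Between F+ and sham the sign turned for 0 genes, and between F- and sham for 18. Shares over all features were not computed for genes kept in every fit or for turned signs, so these counts have no background beside them. Leaving out F+ array 2 lowered the count against sham from 14 to 9, against 2.43% of all features.

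**Figure D2:**
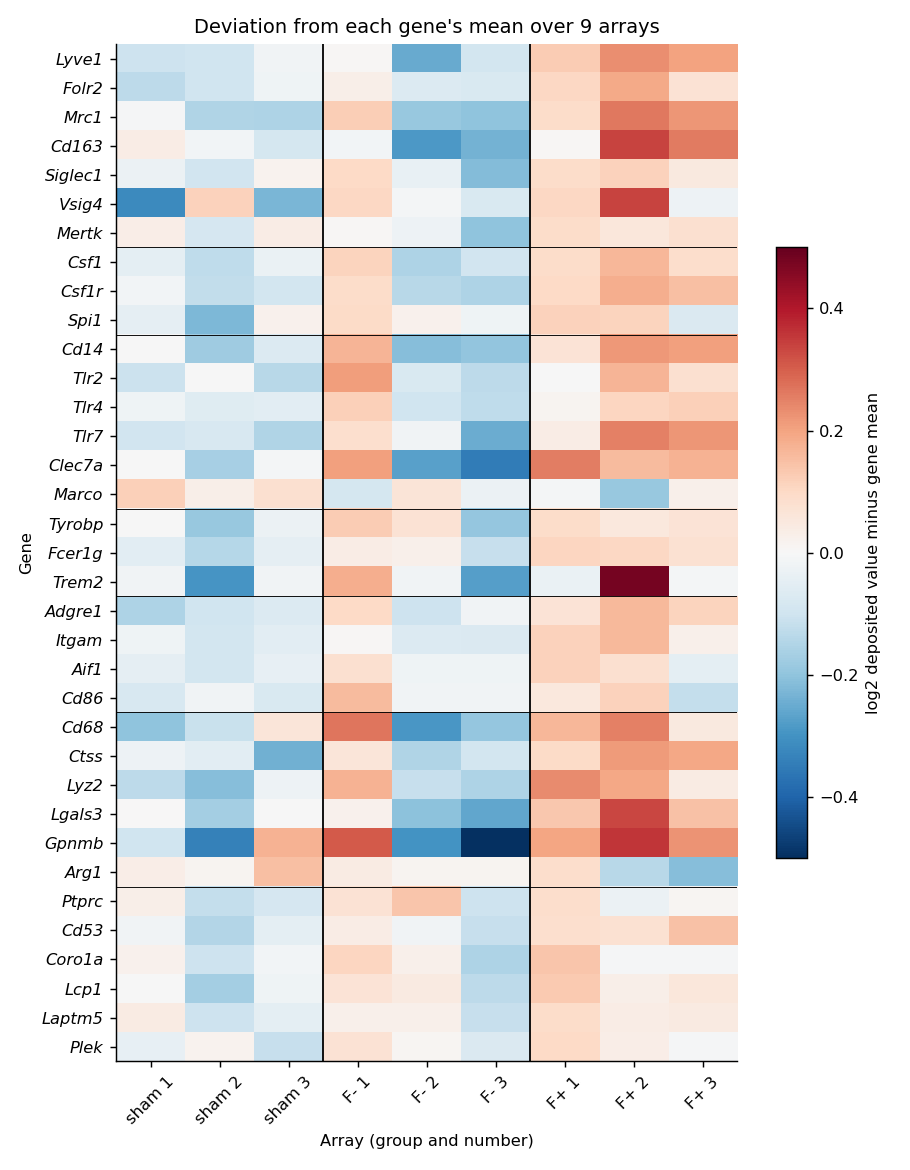
Each row is a gene and each column an array, and the colour gives the log2 deposited value minus the mean of that gene over the 9 arrays, with horizontal lines between roles. Most genes are above their mean on F- array 1 and on the F+ arrays, where the medians are 0.09, 0.09, 0.16 and 0.07, and below it on F- array 3, where the median is -0.13.

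Receptors of tissue-resident macrophages were the group with the most genes that did not overlap between F+ and F-, 4 of 7, against 4.46% of all features. All 7 measured had a higher mean in F+ than in F- (median log2 fold change 0.16) and than in sham (median 0.22). At an unadjusted p under 0.05, 5 and 3 of them were higher, against 3.65% and 3.5% of all features. Between F- and sham their median was -0.016. Lyve1, a hyaluronan receptor of resident macrophages and of lymphatic endothelium, had values of 81.2, 87.3 and 85.4 in F+, 74.7, 62.5 and 69.7 in F- and 69.3, 69.5 and 73.4 in sham. Every F+ array was above every other array. The means were 84.6 ± 3.12 in F+, 69.0 ± 6.13 in F- and 70.7 ± 2.31 in sham (SD, n = 3), and the log2 fold change between F+ and F- was 0.30 ± 0.06 (SE, adjusted p = 0.488), the smallest adjusted p of the set. Other lymphatic endothelial markers were also higher, Reln by 0.45 (log2, adjusted p = 0.481) and Flt4 by 0.22, while Pdpn differed by 0.07 and Prox1 by -0.08. The summed value of these 4 markers was 200.6 to 215.6 in F+, 189.3 to 198.1 in F- and 192.5 to 197.9 in sham, and their part in the Lyve1 value was not tested.

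Cd163, which encodes the receptor that takes up haemoglobin bound to haptoglobin, gave the largest fold among these receptors. It had 56.1, 70.7 and 66.9 in F+, 55.3, 45.8 and 47.4 in F- and 57.3, 55.3 and 52.5 in sham. F+ array 1 lay within the range of the sham arrays and just above the highest F- array. The log2 fold change was 0.38 ± 0.10 between F+ and F- (adjusted p = 0.594), and 0.22 ± 0.10 between F+ and sham (adjusted p = 0.675). Red cell markers differed in the same direction, with a median log2 fold change of 0.48 over 6 genes. Of these, 4 were higher at an unadjusted p under 0.05, against 3.65% of all features. Hbb, a beta-globin gene, had 107.8, 64.2 and 76.8 in F+, 45.7, 39.6 and 46.4 in F- and 47.8, 52.3 and 52.6 in sham. F+ array 1, the highest for Hbb, was the lowest F+ array for Cd163, and the part of blood left in the tissue in either value was not tested.

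Mrc1, which encodes the mannose receptor CD206, had 59.5, 67.1 and 65.0 in F+, 60.8, 49.0 and 48.6 in F- and 55.6, 50.3 and 50.1 in sham. All F+ values were above the sham values, while F- array 1 was above F+ array 1. The log2 fold change was 0.28 ± 0.09 against F- (adjusted p = 0.635) and 0.30 ± 0.09 against sham (adjusted p = 0.616). Folr2, the folate receptor of resident macrophages, had 77.6, 82.4 and 76.0 in F+, 73.8, 68.9 and 68.6 in F- and 66.0, 67.5 and 71.2 in sham, so that F+ lay above both other groups. Its log2 fold change was 0.16 ± 0.05 against F- (adjusted p = 0.610) and 0.21 ± 0.05 against sham (adjusted p = 0.60). Mertk, a receptor tyrosine kinase for the uptake of dying cells, had 37.5, 36.6 and 37.2 in F+ and 35.3, 34.5 and 30.6 in F-, with sham at 36.0, 33.2 and 36.1. The groups F+ and F- did not overlap, and the log2 fold change was 0.15 ± 0.06 (adjusted p = 0.668), or 0.09 without F- array 3.

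Siglec1, a sialic acid receptor also known as CD169, had 39.9, 40.5 and 38.7 in F+, 40.1, 36.5 and 32.2 in F- and 36.7, 35 and 37.9 in sham, and F+ lay above sham but not above F- array 1. Its log2 fold change against F- was 0.14, and 0.21 without F- array 1 or 0.05 without F- array 3. Vsig4, a complement receptor and the only gene of the set in the dimmest 33.3% of features, had 21.4, 25.2 and 19.6 in F+, 21.4, 19.8 and 18.9 in F- and 16.0, 21.6 and 17.0 in sham. All 3 groups overlapped for Vsig4.

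**Figure D3:**
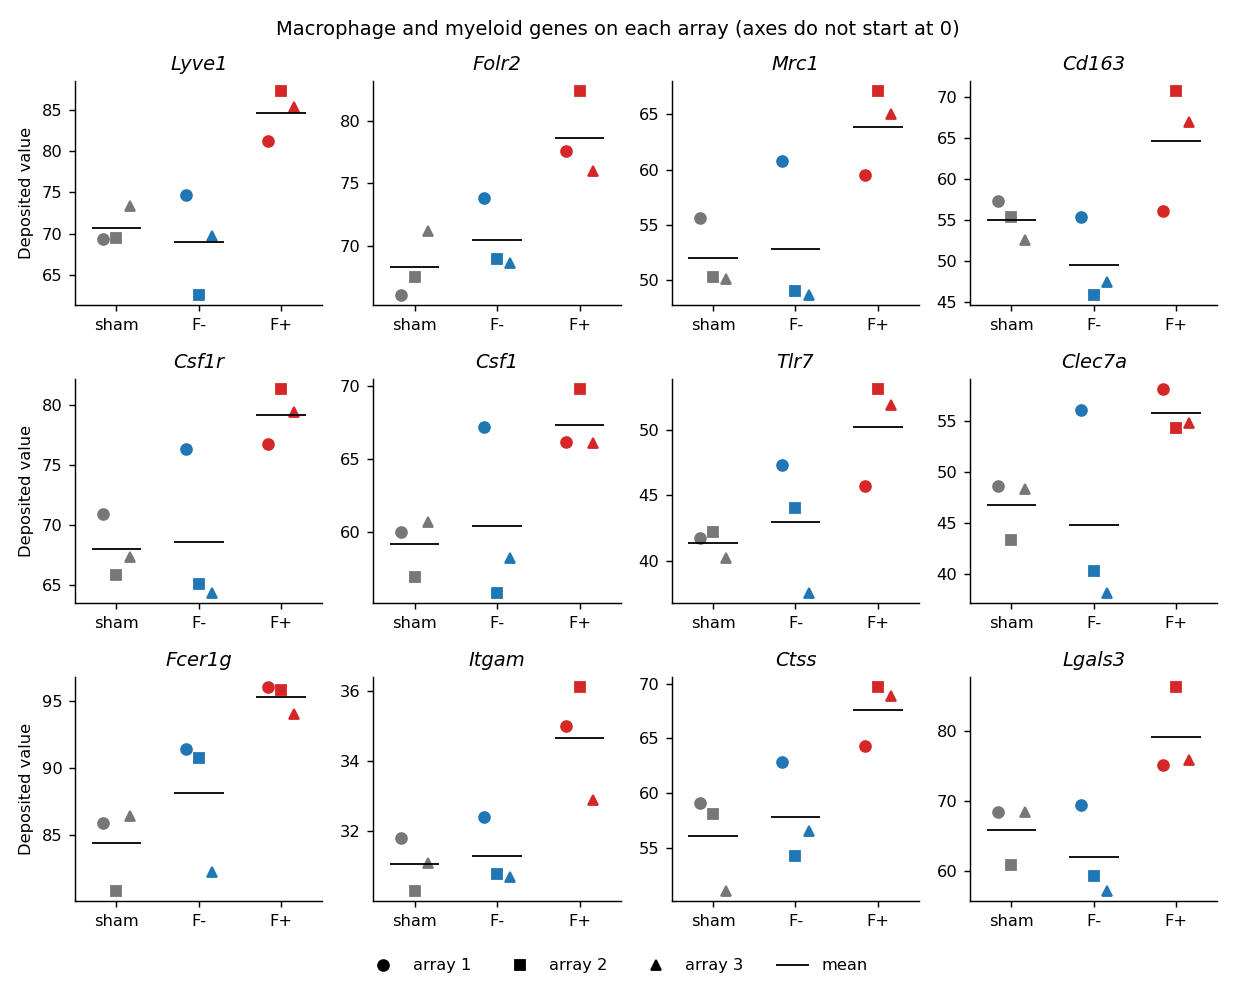
Deposited value on each array for 12 of the 15 genes with an unadjusted p under 0.05 between F+ and F-, with marker shape giving the array number and a bar at the mean of each group. The F+ arrays lie above every F- array for Lyve1, Folr2, Cd163, Csf1r, Fcer1g, Itgam, Ctss and Lgals3, and F- array 1 (blue circle) is the highest F- array in every panel.

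The growth factor of the lineage and its receptor were both higher in F+. Csf1r had 76.7, 81.3 and 79.4 in F+, 76.3, 65.1 and 64.3 in F- and 70.9, 65.8 and 67.3 in sham. The lowest F+ array and F- array 1 were almost level, and the other F- arrays were near sham. The means were 79.1 ± 2.31 in F+, 68.6 ± 6.71 in F- and 68.0 ± 2.62 in sham (SD, n = 3), and the log2 fold change was 0.21 ± 0.07 against F- (adjusted p = 0.624) and 0.22 ± 0.07 against sham (adjusted p = 0.616). Csf1, the ligand of that receptor, had 66.2, 69.8 and 66.1 in F+, 67.2, 55.8 and 58.2 in F- and 60.0, 56.9 and 60.7 in sham. F+ lay above sham without overlap, with log2 fold changes of 0.16 ± 0.07 against F- (adjusted p = 0.671), or 0.11 without F- array 2, and 0.19 ± 0.07 against sham (adjusted p = 0.633). Spi1, which encodes PU.1, had 47.4, 47.2 and 41.6 in F+, 46.7, 44.3 and 43.0 in F- and 42.4, 37.4 and 44.3 in sham, a log2 fold change of 0.02 between F+ and F-. Il34, the other ligand of the Csf1 receptor, differed by 0.03. Among the other 6 colony stimulating factor genes and receptors, Il34 included, all had a higher mean in F+ than in F- (median 0.08). Of these, 1 had an unadjusted p under 0.05, against 3.65% of all features higher. It was Csf2rb, the shared signalling chain of receptors for other myeloid growth factors, at 0.33 (adjusted p = 0.530).

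Of the receptors that recognise microbes, damage or modified lipoproteins, 5 of the 6 measured had a higher mean in F+ than in F- (median 0.17). At an unadjusted p under 0.05, 3 were higher, against 3.65% of all features, but none of the 6 separated the groups completely. For the 5 genes with a higher mean, F- array 1 lay above the lowest F+ array. Clec7a, which encodes the beta-glucan receptor dectin-1, had 58.1, 54.3 and 54.8 in F+, 56.1, 40.3 and 38.1 in F- and 48.6, 43.3 and 48.3 in sham. The log2 fold change of 0.34 ± 0.13 (adjusted p = 0.671) became 0.51 ± 0.06 without F- array 1 (1.42-fold, adjusted p = 0.0791), the smallest adjusted p of the set in that fit. Cd14, the coreceptor for bacterial lipopolysaccharide, had 55.3, 61.2 and 60.8 in F+, 59.3, 45.5 and 46.0 in F- and 52.6, 46.6 and 50.3 in sham. Its log2 fold change was 0.24 ± 0.10 against F- (adjusted p = 0.672), or 0.37 without F- array 1, and 0.25 ± 0.10 against sham (adjusted p = 0.670), and its F+ arrays lay above all sham arrays. Tlr7, the endosomal receptor for single-stranded RNA, had 45.7, 53.1 and 51.9 in F+, 47.3, 44.0 and 37.5 in F- and 41.7, 42.2 and 40.2 in sham. It differed by 0.23 ± 0.09 from F- (adjusted p = 0.670), or 0.14 without F- array 3, and by 0.28 ± 0.09 from sham (adjusted p = 0.616).

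The lipopolysaccharide receptor Tlr4 had 47.3, 50.4 and 50.9 in F+, 50.8, 43.7 and 42.9 in F- and 46.1, 44.9 and 45.1 in sham. Tlr2, the receptor for bacterial lipoproteins, had 25.9, 29.2 and 27.4 in F+, 30.0, 24.6 and 23.7 in F- and 24.1, 25.9 and 23.6 in sham. For both genes F- array 1 was above the lowest F+ array, and for Tlr2 it was the highest array of all. Without F- array 1, the log2 fold change against F- went from 0.12 to 0.19 for Tlr4 and from 0.08 to 0.19 for Tlr2. Marco, a scavenger receptor of some tissue macrophages, ran the other way, with 29.1, 25.7 and 29.8 in F+, 27.6, 30.6 and 28.7 in F- and 31.8, 29.9 and 31.0 in sham. Every F+ array lay below every sham array for Marco, the only gene of the 35 of which this was true, with a log2 fold change of -0.13 (adjusted p = 0.688). The share of all features with every F+ array below every sham array was not computed, and 1 of 35 genes is not read as a result.

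The adaptors that carry the ITAM signalling motif differed less. Fcer1g, the common gamma chain of activating Fc receptors, had 96.0, 95.8 and 94.0 in F+, 91.4, 90.7 and 82.2 in F- and 85.9, 80.8 and 86.4 in sham. F+ lay above both groups, and the log2 fold change was 0.11 ± 0.05 against F- (adjusted p = 0.671), or 0.065 without F- array 3, and 0.18 ± 0.05 against sham (adjusted p = 0.604). Tyrobp, the adaptor DAP12, had 75.7, 73.7 and 74.4 in F+, 77.4, 74.6 and 62.1 in F- and 70.9, 62.2 and 69.5 in sham, so that F+ and F- overlapped. Trem2, a lipid receptor that signals through DAP12, had 34.4, 49.1 and 35 in F+, 39.9, 34.8 and 29.1 in F- and 34.8, 28.7 and 34.8 in sham. For Trem2, F+ array 2 was far above every other array, and the other F+ arrays were level with sham. Its log2 fold change against F- was 0.18, and 0.016 without that array.

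Genes used to identify macrophages gave small folds. Itgam, the integrin chain CD11b, had 35, 36.1 and 32.9 in F+, 32.4, 30.8 and 30.7 in F- and 31.8, 30.3 and 31.1 in sham. F+ did not overlap either group, and the log2 fold change was 0.15 ± 0.04 against F- (adjusted p = 0.601) and 0.16 ± 0.04 against sham (adjusted p = 0.60). Adgre1, which encodes F4/80, had 52.8, 56.3 and 54.4 in F+, 54.0, 46.9 and 49.8 in F- and 45.3, 47.0 and 48.1 in sham. Its largest difference was between F+ and sham, at 0.22 ± 0.05 (adjusted p = 0.60), with F- arrays spread from the sham range to the F+ range. Aif1, which encodes the actin-binding protein Iba1, had 39.9, 38.9 and 35.6 in F+, 38.9, 36.3 and 36.3 in F- and 35.7, 34.6 and 35.8 in sham. The costimulatory ligand Cd86 had 28.5, 29.8 and 25.3 in F+, 30.7, 27.2 and 27.2 in F- and 26.0, 27.2 and 26.1 in sham, and its groups overlapped or touched in every comparison.

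Secreted and lysosomal proteins of activated macrophages included the largest fold of the set, that of Gpnmb. Lgals3, which encodes galectin-3, a carbohydrate-binding protein associated with cardiac fibrosis, had 75.2, 86.2 and 75.8 in F+, 69.5, 59.4 and 57.2 in F- and 68.5, 60.9 and 68.4 in sham. Every F+ array was above all 6 others. The means were 79.1 ± 6.18 in F+, 62.0 ± 6.56 in F- and 65.9 ± 4.36 in sham (SD, n = 3), with a log2 fold change of 0.35 ± 0.09 against F- (1.28-fold, adjusted p = 0.567) and 0.26 ± 0.09 against sham (adjusted p = 0.633). Ctss, the lysosomal protease cathepsin S, had 64.3, 69.7 and 68.9 in F+, 62.8, 54.2 and 56.5 in F- and 59.1, 58.1 and 51.0 in sham. F+ lay above both groups, by 0.23 ± 0.07 against F- (adjusted p = 0.635) and 0.27 ± 0.07 against sham (adjusted p = 0.604).

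Gpnmb, a membrane glycoprotein of lipid-laden and lysosome-rich macrophages, had the widest spread of the set as well as the largest fold. Its values were 61.2, 68.3 and 62.3 in F+, 66.0, 43.4 and 37.1 in F- and 49.8, 42.2 and 60.1 in sham. F+ array 1 and F+ array 3 were below F- array 1. The log2 fold change between F+ and F- was 0.43 ± 0.21 (1.35-fold, adjusted p = 0.683), and without F- array 1 it was 0.67 (1.59-fold, adjusted p = 0.189), while without F- array 3 it was 0.25. Lyz2, which encodes lysozyme, had 111.8, 108.5 and 97.5 in F+, 106.9, 87.5 and 85.2 in F- and 86.6, 81.8 and 93.3 in sham. It differed by 0.28 ± 0.10 between F+ and sham (adjusted p = 0.633), which did not overlap, and by 0.19 between F+ and F-, or 0.29 without F- array 1. Cd68, a lysosomal membrane protein widely used to stain macrophages, had 52.2, 55.5 and 48.2 in F+, 56.1, 38.1 and 40.7 in F- and 40.5, 43.1 and 48.5 in sham, with overlap in each comparison. Its log2 fold change against F- was 0.23, and 0.40 without F- array 1 or 0.12 without F- array 2. Arg1, an arginine-degrading enzyme of alternatively activated macrophages, had the lowest log2 fold change of the set, -0.11 against F-, with 27.6, 23.6 and 22.4 in F+, 26.7, 26.2 and 26.2 in F- and 26.6, 26.2 and 28.8 in sham.

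Genes expressed by white blood cells in general differed little between F+ and F- (median 0.06). Cd53, a tetraspanin of leukocytes, was the exception, with 75.3, 74.8 and 78.6 in F+, 72.8, 70.1 and 65.6 in F- and 70.1, 64.1 and 68.7 in sham. F+ lay above both groups, at 0.13 ± 0.05 against F- (adjusted p = 0.658) and 0.17 ± 0.05 against sham (adjusted p = 0.616). Ptprc, which encodes the pan-leukocyte phosphatase CD45, had 58.4, 53.9 and 55.3 in F+, 57.8, 60.5 and 51.1 in F- and 56.1, 50.6 and 51.8 in sham, so that its log2 fold change between F+ and F- was -0.01. Laptm5, a lysosomal membrane protein of blood cells, had 62.9, 60.5 and 60.9 in F+ and 60.0, 60.0 and 54.5 in F-, with sham at 60.6, 54.9 and 57.0, a difference of 0.08 without overlap between F+ and F-. The actin-binding proteins encoded by Coro1a and Lcp1 had ranges of 50.5 to 55.8 and 71.9 to 77 in F+, 45.6 to 54.6 and 64.2 to 73.7 in F-, and 47.2 to 51.5 and 62.6 to 70.2 in sham. Plek, the protein kinase C substrate pleckstrin, ranged from 31.4 to 33.8 in F+, from 30.0 to 33.2 in F- and from 29.1 to 31.9 in sham. The F+ and F- ranges of Coro1a, Lcp1 and Plek overlapped.

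Other genes of the myeloid lineage, from lists that do not hold any of the 35, had their largest median difference among complement and Fc receptors. Of the 7 C1q chains and Fc gamma receptors listed, 6 were measured, all 6 were higher in F+ than in F- (median 0.22) and 3 had an unadjusted p under 0.05, while against sham all 6 did (median 0.30). Over all features, 3.65% were higher at that threshold in F+ than in F-, and 3.5% in F+ than in sham. C1qb, a chain of the complement recognition protein C1q that macrophages secrete, had 70.7, 72.6 and 71.3 in F+, 65.8, 54.9 and 56.7 in F- and 60.7, 54.6 and 57.8 in sham, a log2 fold change of 0.28 between F+ and F- (adjusted p = 0.567). Every F+ array was above all others for C1qb. Of the 12 monocyte and recruited macrophage genes measured, 11 were higher in F+ than in F- (median 0.15), 3 with an unadjusted p under 0.05. Cx3cr1, the fractalkine receptor, had 59.5, 55.7 and 55.5 in F+, 56.3, 41.0 and 41.3 in F- and 41.8, 43.0 and 48.6 in sham, at 0.32 (adjusted p = 0.670). F13a1, the A chain of clotting factor XIII, differed by 0.18. Ccr2, the chemokine receptor that draws monocytes from the blood, was the one lower gene of this list, with 78.7, 65.9 and 71.8 in F+ and 74.4, 79.7 and 80.7 in F-, a log2 fold change of -0.12. It lies outside the rule for naming genes and was chosen after its values were seen.

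Between F+ and F-, leukocyte signalling and oxidase genes were higher in F+ in 15 of 17 cases (median 0.09), with 4 higher and 1 lower at an unadjusted p under 0.05. Over all features, 3.65% were higher and 3.76% lower at that threshold, for this and the following lists. A single gene of a list at that threshold is thus not read as a difference of the list. Among the higher ones was Cybb, the catalytic subunit of the phagocyte oxidase, at 0.25. Of the 11 myeloid transcription factors, 8 were higher (median 0.06) and 4 had an unadjusted p under 0.05, Fli1 at 0.11 and the oxysterol receptor gene Nr1h3 at 0.13 among them. Against sham, 7 of the 11 were higher in F+ (median 0.02), and 4 of the 11 were higher in F- (median -0.03). Lysosome genes, which all cells express, were higher in 14 of 15 cases but by little (median 0.05), 2 with an unadjusted p under 0.05, with the protease gene Ctsb at 0.09 and the progranulin gene Grn at 0.12. Genes of alternative activation were higher in 10 of 12 cases (median 0.13), 3 with an unadjusted p under 0.05, including the chemokine gene Ccl24 at 0.18 and Stat6, the transcription factor of interleukin 4 signalling, at 0.13. Against sham, 8 of the 12 were higher in F+ (median 0.04) but only 2 in F- (median -0.05). Between F- and sham, 0 were higher and 2 lower at that threshold, against 3.07% and 2.96% of all features. The difference between F+ and F- in this list thus also holds F- values below sham. Genes of inflammatory activation were higher in 8 of 11 cases (median 0.05), 0 higher and 1 lower at an unadjusted p under 0.05, the lower one being Nos2, the inducible nitric oxide synthase, at -0.10. None of these genes passed the adjusted test.

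Markers of other cells that a whole ventricle holds were measured beside the myeloid genes, and their part in the myeloid values was not tested. Over all features, 3.65% were higher and 3.76% lower in F+ than in F- at an unadjusted p under 0.05. Of the 9 neutrophil markers, 5 were higher in F+ than in F- (median 0.04), 0 with an unadjusted p under 0.05, and their summed value was 182.9 to 192.5 in F+, 179.5 to 187.2 in F- and 184.3 to 194.3 in sham. Of 13 T and NK cell markers, 5 were higher (median -0.02) and 1, Cd3d, had an unadjusted p under 0.05, and of 7 dendritic cell markers 6 were higher (median 0.06) and 1, Xcr1, was lower at that threshold. The 4 measured B cell markers were all higher, 0 of them with an unadjusted p under 0.05. Mast cell markers were higher in 7 of 8 cases (median 0.16), 3 with an unadjusted p under 0.05, and their summed value of 201.7 to 234.3 on the F+ arrays did not overlap that of the F- (183.6 to 192.5) or sham arrays (188.4 to 197.4). Summed red cell markers were also apart, at 206.7 to 321.1 in F+, 153.7 to 169.7 in F- and 169.5 to 187.8 in sham.

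Among cells of the heart itself, fibroblast markers were higher in 6 of 9 cases (median 0.02, 0 with an unadjusted p under 0.05), with summed values of 769.1 to 836.7 in F+, 750.4 to 815.9 in F- and 742.7 to 787.1 in sham. Endothelial markers were higher in 3 of 6 cases (median 0.01), and smooth muscle markers in 4 of 4 (median 0.08). In each list 1 gene was higher at an unadjusted p under 0.05, Pecam1 and Tagln, against 3.65% of all features. Cardiomyocyte markers were higher in 1 of 10 cases (median -0.02), and Myl2 was lower at that threshold, against 3.76% of all features. Dividing cell markers were higher in 0 of 5 cases (median -0.06), and their summed value was 164.5 on F- array 1, the top of the F- range of 129.8 to 164.5, against 133.3 to 145.8 in F+ and 117.7 to 139.2 in sham.

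**Figure D4:**
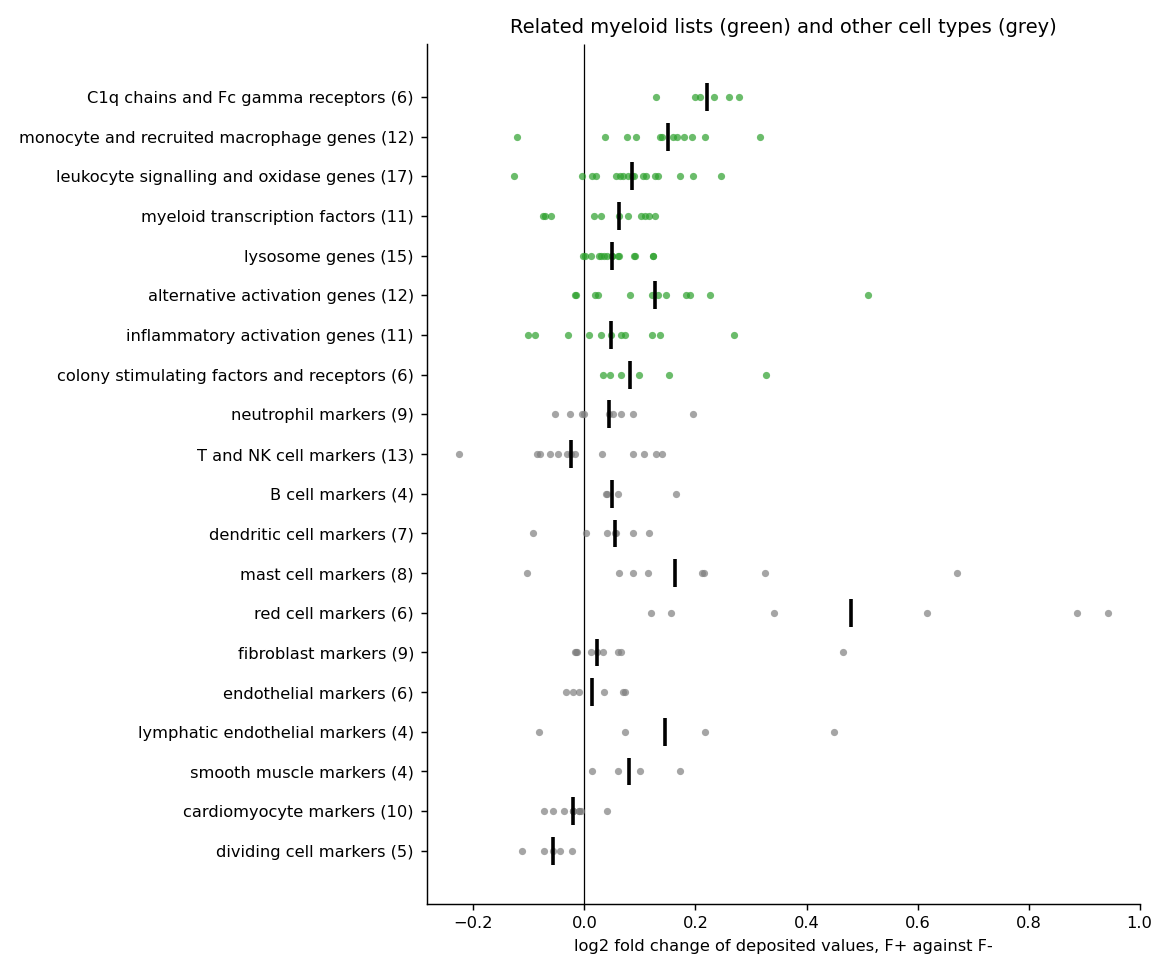
Each point is a gene of a list named at the left, with the number measured in parentheses, placed by its log2 fold change in F+ against F-, and the black bar is the median of the list. The C1q chains and Fc gamma receptors have a median of 0.22 and the red cell markers one of 0.48, while cardiomyocyte and dividing cell markers have medians below 0.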

How the data were processed

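The authors hybridized RNA of rat right ventricles to 9 Affymetrix arrays, and the signal intensity they deposited, 1 value per feature and array, was used as given. No source used here names the normalization, summary method or scale. The methods say that hybridizations were done in triplicate and averaged. RNA was extracted with TRIzol per the study's methods and with Sepasol per the labels. Of 29215 features, 15310 had 1 gene symbol in the platform annotation, 323 had several and 13582 were not listed, and 15279 matched a GRCr8 gene ID. Log2 values, with no pseudocount and no filter, were read with the data.table package (version 1.17.8) and fitted in R 4.3.3 by limma 3.58.1 (lmFit, eBayes), with a mean for each group, all 9 arrays and Benjamini-Hochberg adjustment over all features. The limma fit of F+ against F- was tested on simulated arrays with noise drawn separately for each gene. The other steps were not part of that test. Plots and promoter searches used Python 3.11.15, pandas 2.3.3 and matplotlib 3.10.9, and promoters came from RefSeq GRCr8.

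The genes and lists were chosen with earlier results of these data known. Every measured gene was named with its level. Fold changes with errors were given for genes with an unadjusted p under 0.05 and for the leading gene of each role, and up to 2 genes were named per other list. Outside this rule, errors were also given for Gpnmb between F+ and F- and for Cd163 between F+ and sham. Pdpn, Prox1, Il34, Ccr2 and Ncam1 were likewise named outside it. No source used here says that the replicate numbers pair arrays, and they were not used as pairs in the main fit. Correlations of the deviations of same-numbered arrays ran from -0.21 to 0.05, which does not settle whether they were paired. Alternatives were other normalizations, filters, priors and group sets, the replicate number as a block and each array left out. Square roots of the values and leaving out F- array 1 with sham array 2 were tried as well, the latter added after seeing the data.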

Additional observations from a re-analysis of the deposited data

How the results depend on the processing

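For the genes and comparisons that the naming rule covers, 1370 fold changes under an alternative kept their direction, and none of these genes passed the adjusted test in any of them. Another 2 turned, both of Cdk1 between F+ and F-, which was 0.016 without F- array 1, with or without sham array 2, and between -0.22 and 0.016 over the arrays left out in turn. Myeloid genes outside that rule, with differences near 0, turned as well, 7 of the 35 between F+ and F-. Of the medians of the myeloid genes, 57 moved by less than the spread between arrays and 3 by more. These were 0.31 between F+ and F- and 0.51 between F+ and sham with square roots of the values, and -0.058 between F- and sham with F- array 1 and sham array 2 left out together. Counts stayed within 1.5 times in 83 cases and moved further in 28. For F+ against F-, 1 feature of the array passed the adjusted test in the main analysis, 3 with features of 1 symbol only, with a trend and robust prior, without the dimmest 33.3% of features or with both arrays left out, 0 with only the 2 groups compared, and 0 to 3 with each array left out in turn. For F+ against sham, 1 passed with only the 2 groups compared and 1 with both arrays left out. The myeloid genes with an unadjusted p under 0.05 numbered 6 to 22 between F+ and F-, 9 to 20 between F+ and sham and 0 to 3 between F- and sham in either direction with each array left out, 22 between F+ and sham with only the 2 groups compared, and 5 between F- and sham with both arrays left out. With each array left out, the shares of all features higher were 2.75% to 5.22%, 2.43% to 4.89% and 2.24% to 3.76% in the 3 comparisons. The shares lower were 2.37% to 5.24%, 2.69% to 4.64% and 1.89% to 4.54%. With the replicate block, 0 features passed the adjusted test between F+ and F-, and 12, 16 and 0 myeloid genes had an unadjusted p under 0.05 in the 3 comparisons. Shares of all features were not computed with the replicate block or with only the 2 groups compared, so those counts have no background. What the same-numbered arrays shared beyond a number is not stated in the sources used here. Causes of these moves were not tested, beyond the fewer features or arrays that some alternatives used. With 3 arrays in a group, precision is limited by their number.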

Other observations

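F- array 1 also stood apart for genes outside the myeloid set. Postn, a matrix protein gene of activated fibroblasts, had 86.7, 43.6 and 35.4 in F-, 65.5, 69.4 and 77.6 in F+ and 40.5, 42.9 and 50.2 in sham, so that F- array 1 was the highest of the 9. Ncam1, a cell adhesion molecule gene, had 97.3, 52.5 and 55.0 in F-, 107.7, 110.2 and 104.8 in F+ and 55.3, 64.6 and 58.6 in sham. Cdk1, a kinase gene of dividing cells, had 29.7, 24.2 and 21.3 in F-, 23.0, 22.6 and 23.3 in F+ and 19.7, 24.3 and 23.3 in sham. Cpa3, a mast cell protease gene, had its highest value on F+ array 2, at 50, against 30.5 and 30.7 on the other F+ arrays and 17.6 to 27.5 in F-. Ncam1 lies outside the rule for naming genes and was chosen after its values were seen.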
